A study of Mus musculus with 24 samples.

Results

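The untreated state of 3T3-L1 adipocytes was described from the 6 DMSO control arrays of the series, in the version normalized together with the PPARδ agonist arrays. These are 6 of the 24 samples in the series, taken by title alone, and no agonist array was used. 3T3-L1 is a mouse fibroblast-like line that is induced in culture to become fat cells. The cells were induced 2 days post-confluence with 1 μM dexamethasone, 0.5 mM isobutylmethylxanthine and 100 nM insulin for 72 h, and at day 11 post-induction they received medium with 10% FBS, 100 nM insulin and DMSO, the vehicle, for 2 days (48 h). All 6 arrays share this treatment, and the labels separate them by a replicate number from 1 to 6. What the number stands for is not labelled, and the labels do not say that each array came from a flask or differentiation of its own, so the spread between the arrays may be technical as well as biological. For the same reason each p-value below measures only the spread between these arrays. Replicates 1 to 3 were set against replicates 4 to 6, a split proposed with earlier results of these data known.

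The values are variance-stabilized and quantile-normalized bead signals on a log2 scale, for 13718 probes that the authors had kept as detected. They span 6.33 to 14.81 with a median of 8.33 in every array, because quantile normalization gives all arrays the same distribution. A single gene symbol is attached to 11962 of the probes, which cover 8289 genes, and a gene measured by several probes is represented by the brightest of them. The brightness of a spot depends on the probe as well as on the transcript, so an order of probes by brightness is not an order of transcripts by abundance.

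White adipocytes take up fatty acids, esterify them to triacylglycerol and keep the triacylglycerol in a droplet coated by perilipins and CIDE proteins, from which lipases release it again. PPARγ and the C/EBP factors drive their differentiation, during which preadipocyte genes are normally lost and genes of lipid storage and adipokines are gained. Cultures of 3T3-L1 differentiate unevenly, and cells that stay fibroblast-like remain in the dish beside those that fill with lipid.

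Of the markers that define a mature adipocyte, 7 of 13 had a named probe among those kept as detected. Lpl, the lipase that frees fatty acids from circulating lipoproteins, averaged 14.21 ± 0.14 (SD, n = 6), and Adipoq, which encodes adiponectin, averaged 13.05 ± 0.45 (SD, n = 6). Cidec, a protein that lets droplets grow, averaged 10.61 ± 0.72, and Pparg 9.79 ± 0.21 (SD, n = 6 each). The other 3, Plin1, Lep and Lipe, averaged between 7.04 and 7.10 and lay below the median gene, whose mean was 8.72.

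Of 9 markers of preadipocytes and fibroblasts, 7 had a named probe among those kept as well. Dlk1, an inhibitor of adipogenesis that is expressed in preadipocytes, had a level of 14.46 ± 0.07, close to the top of the scale. Pdgfra, a growth factor receptor of mesenchymal progenitors, averaged 13.08 ± 0.12, and Thy1, a fibroblast surface protein, 10.66 ± 0.10 (SD, n = 6 each). Gata2 averaged 9.70. Pdgfrb, Gata3 and Cd34 averaged 8.20, 7.15 and 6.88 and lay below the median gene, whose mean was 8.72. Among markers of other cell types, Cd14 was the 1 of 8 macrophage markers with a named probe among those kept, at 8.01 ± 0.09. The 2 of 7 skeletal muscle markers with such a probe, Acta1 and Des, averaged 6.53 and 6.88, near the bottom of the scale. Of the 6 osteoblast and chondrocyte markers none had a named probe among those kept, and Cox8b, at 7.70, was the 1 of 5 brown adipocyte markers with such a probe.

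Genes of protein synthesis were numerous among the brightest of the DMSO cells. Ribosomal proteins made up 12 of the 25 genes with the highest mean and 30 of the highest 100. Rplp1, a stalk protein of the large subunit, averaged 14.73, Rps4x 14.72 and Rpl9 14.72, and Eef1a1, the elongation factor that brings aminoacyl-tRNA to the ribosome, averaged 14.71. Beside them stood Ppia, or cyclophilin A, at 14.60, Fth1, the heavy chain of ferritin, at 14.54, and Mt1, a metal-binding metallothionein, at 14.60.

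Secreted products accounted for a further group of the brightest 25. Serpinf1, which encodes the anti-angiogenic factor PEDF, averaged 14.64 ± 0.07, Igf2, a fetal growth factor, 14.55 ± 0.05, and Dcn, the matrix proteoglycan decorin, 14.52 ± 0.04 (SD, n = 6 each). Ptn, the growth factor pleiotrophin, averaged 14.53, and Lgals1, a galactoside-binding lectin, 14.50. Outside this group, Plpp3, a lipid phosphate phosphatase, averaged 14.53. Below the brightest 25, the transcripts CYTB and ND4 of the mitochondrial genome reached 14.47 and 14.46.

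The brightest probe of all was assigned to Slc35e3, a member of a family of nucleotide sugar transporters. It measured 14.73, 14.77 and 14.73 in replicates 1 to 3 and 14.74, 14.81 and 14.71 in replicates 4 to 6. Mdm2, the ubiquitin ligase that limits p53, ranked 8 among the genes. Its probe measured 14.81, 14.73 and 14.56 in replicates 1 to 3 and 14.62, 14.53 and 14.52 in replicates 4 to 6, and the groups overlapped.

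None of the 25 brightest genes was called between replicates 1 to 3 and 4 to 6 in limma, against 120 of all 8289 genes. Calls were rare over all genes, so this count does not set the brightest genes apart. At an unadjusted p under 0.05 there were 0, against 541 higher and 492 lower of all genes. Their SDs over the 6 arrays ran from 0.0296 for Ppia to 0.118 for Mdm2. The gene ranked 25, Rpl37, had a mean of 14.50 and the next a mean of 14.49, so the list ends at no gap. The highest value any probe reached was 14.81, and whether the values are compressed near the top of the scale was not tested.

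**Figure D1:**
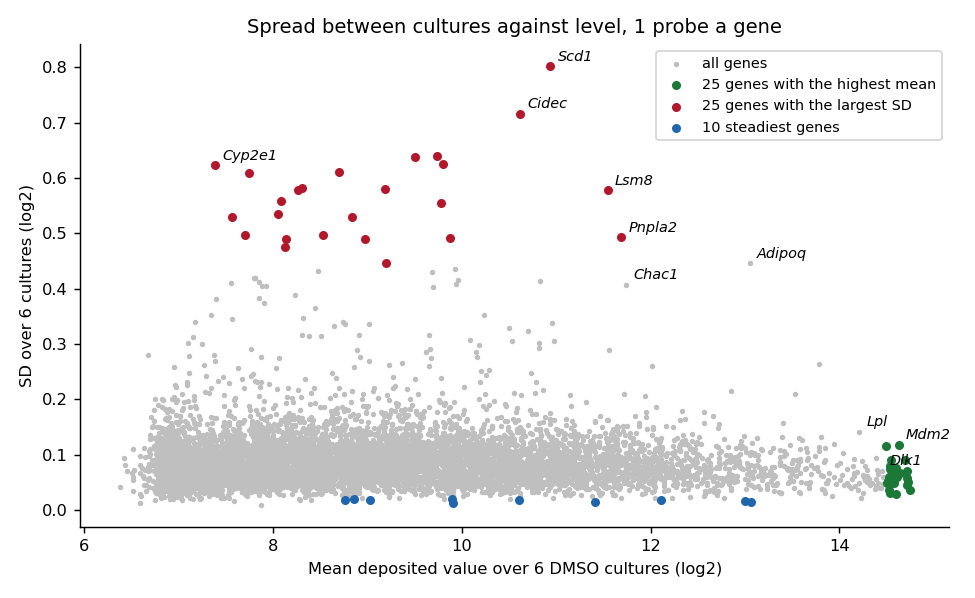
SD over the 6 DMSO replicates (vertical axis, log2) against the mean deposited value (horizontal axis, log2) for 8289 genes, 1 probe each, with the 25 brightest genes in green, the 25 of largest SD in red and the 10 steadiest of the brighter genes in blue. The brightest genes lie below an SD of 0.12, while Scd1 reaches 0.80 at a mean of 10.94.

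The replicates were close to each other for most transcripts. The median SD over 13718 probes was 0.0829, with an interquartile range of 0.0631 to 0.1069, and 1.27% of them, 174 probes, were above 0.25. When the probes were put in 5 bins by their mean, the median SD lay between 0.0792 in the dimmest bin and 0.0878 in the bin next to the brightest. Among genes, 100 had an SD above 0.25 and 17 above 0.5.

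The 10 steadiest genes of the brighter part of the array had varied functions. Erg28, a scaffold protein of sterol synthesis, had the smallest SD of them, 0.0121 around a mean of 9.90. The respiratory complex I subunits Ndufa11 and Ndufb8 had SDs of 0.0143 and 0.0144 at means of 11.41 and 13.06. Myl12b, a myosin light chain, Sae1, a subunit of the SUMO-activating enzyme, and U2af1, a splicing factor, followed with SDs of 0.0167, 0.0182 and 0.0185. These SDs belong to 1 probe a gene. Dimmer probes had SDs of 0.0941 and 0.0548 for Erg28, 0.1283 and 0.1282 for Myl12b and 0.1258 for Sae1.

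Among the 25 genes with the largest SD were 9 of the 48 measured genes on the lists of adipocyte markers, lipid droplets, triacylglycerol synthesis and fatty acid synthesis. In 24 of the 25 the highest value was in replicate 3, in 19 the lowest was in replicate 5 and in 5 it was in replicate 4. Scd1, the stearoyl-CoA desaturase that makes monounsaturated fatty acids, had the largest SD of any gene, 0.80, and values of 11.31, 11.56 and 12.03 in replicates 1 to 3 and 10.41, 10.06 and 10.27 in replicates 4 to 6. Cidec followed with an SD of 0.72 and values of 10.98, 10.99 and 11.67 in replicates 1 to 3 and 10.11, 9.77 and 10.16 in replicates 4 to 6. In both genes the lowest of replicates 1 to 3 was above the highest of replicates 4 to 6, and replicate 3 stood above replicates 1 and 2.

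Genes of different roles shared the highest array, replicate 3, and the lowest, replicate 5. Adig, or adipogenin, a small membrane protein of adipocytes, measured 9.77, 9.77 and 10.51 in replicates 1 to 3 and 9.10, 8.78 and 9.07 in replicates 4 to 6. Dgat2, which adds the last fatty acid to triacylglycerol, measured 8.98, 9.01 and 9.64 in replicates 1 to 3 and 8.28, 8.04 and 8.25 in replicates 4 to 6. Pnpla2, the lipase that starts the breakdown of triacylglycerol, measured 11.87, 11.94 and 12.47 in replicates 1 to 3 and 11.32, 11.18 and 11.34 in replicates 4 to 6. In all 3 the lowest of replicates 1 to 3 lay above the highest of replicates 4 to 6.

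Other members of the 25 encode carboxylesterases (Ces1d and Ces1f), the glutathione transferase Gsta3, the cytochrome Cyp2e1, the lipogenic nuclear protein Thrsp, carbonic anhydrase Car3, the lipase inhibitor G0s2, the melanocortin receptor partner Mrap, the free fatty acid receptor Ffar2, and Hsd11b1, which regenerates active glucocorticoid. Their SDs lay between 0.49 for Hsd11b1 and 0.64 for Ces1d. Orm1 and Hp, secreted acute phase proteins that adipocytes also make, had SDs of 0.58 and 0.56. Ces1d and Ces1f, like Orm1 and Orm2, are members of families of similar sequence, and how far their probes can tell them apart was not tested.

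One of the 25 ran the other way and another followed neither direction. Lsm8, a protein of the complex that binds U6 RNA, measured 11.17, 10.98 and 11.11 in replicates 1 to 3 and 12.32, 11.51 and 12.20 in replicates 4 to 6, so that replicate 5 lay between the others. Ifi27l2a, an interferon-induced gene, measured 10.05, 9.57 and 10.77 in replicates 1 to 3 and 9.58, 9.43 and 9.89 in replicates 4 to 6, which overlapped. The gene ranked 25 by SD, Amy2a5, had an SD of 0.4463 and Adipoq, which came next, 0.4462.

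**Figure D2:**
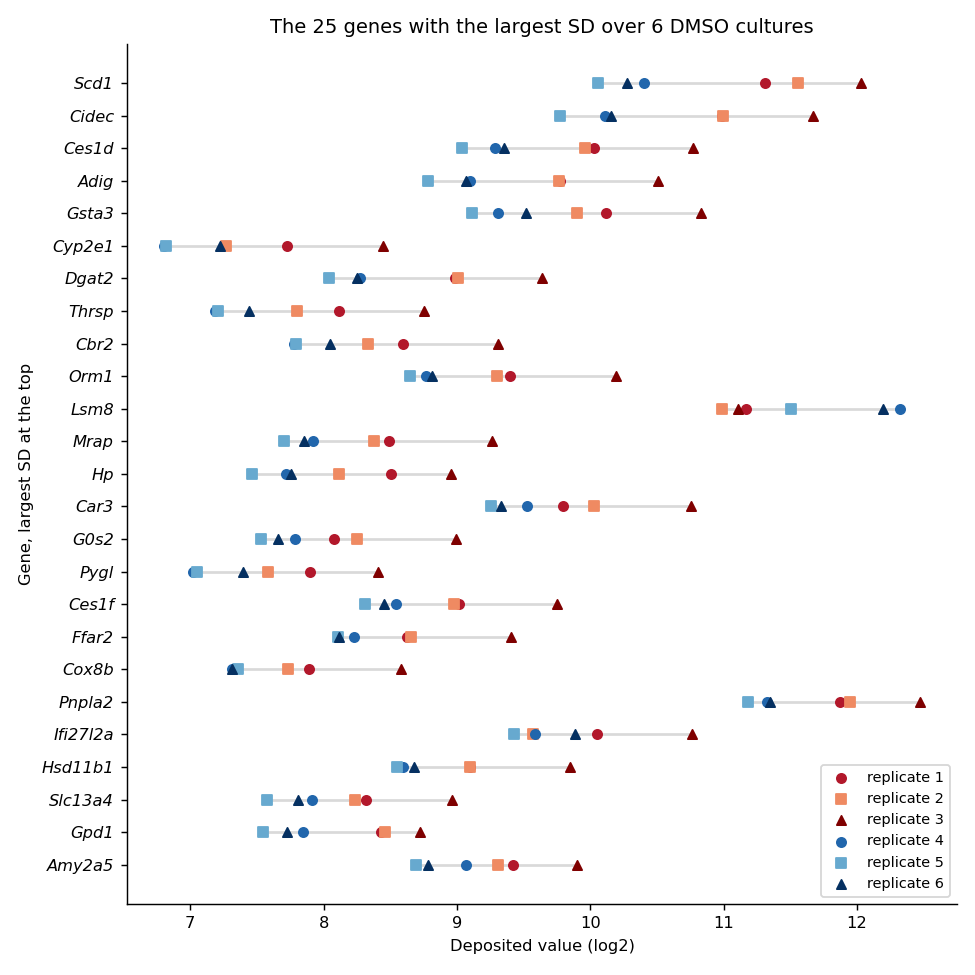
Deposited values (horizontal axis, log2) of the 25 genes with the largest SD, 1 row a gene and 1 symbol a replicate, with replicates 1 to 3 in reds and 4 to 6 in blues. Replicate 3 is the highest in 24 of the 25 genes, and Lsm8 is the gene in which the reds lie on the left.

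Over the 100 genes with the largest SD, 69 were highest in replicate 3 and 13 in replicate 2, while replicates 1 and 5 were the highest in none. Of these 100 genes, 58 were lowest in replicate 5. Over all 8289 genes, the number that peaked in 1 replicate ran from 1181 in replicate 4 to 1801 in replicate 2, with 1402 in replicate 3. The 25 genes were chosen by their SD, so these counts describe them and test nothing.

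Single arrays stood apart in different gene groups. Replicate 3 was over 0.5 above the mean of the other 5 arrays, and above each of them, in 97 probes, which carried 69 gene names led by Scd1, Cyp2e1 and Cidec. Replicate 2 was so in 51 probes with 37 gene names, and replicate 5 was below the others by as much in 35 probes, led by Scd1 and Cidec. Replicates 1, 4 and 6 had 0, 3 and 14 probes above the others, and 3, 7 and 4 below. Of the 14 probes of replicate 6, 6 were assigned to H2A histone genes, H2ac7, H2ac10, H2ac12, H2ac13 and H2ac15.

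**Figure D3:**
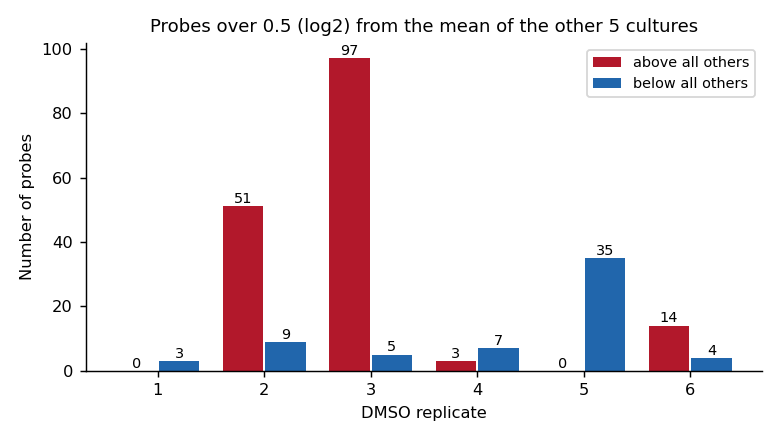
Number of probes (vertical axis) in which 1 DMSO replicate (horizontal axis) lies over 0.5 on the log2 scale from the mean of the other 5 and above (red) or below (blue) each of them. Replicate 3 has 97 probes above and replicate 5 has 35 probes below.

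The correlation between arrays over all probes was 0.9952 to 0.9972 within replicates 1 to 3, 0.9980 to 0.9981 within replicates 4 to 6 and 0.9951 to 0.9968 between them. A pair of arrays differed by more than 0.5 in 21 to 148 probes within replicates 1 to 3, in 4 to 18 within replicates 4 to 6 and in 55 to 171 between them. Replicates 1 to 3 were thus the more scattered set. In a principal component analysis, component 1 held 38.5% of the variance and put replicates 1 to 3 on one side and 4 to 6 on the other, and component 2, with 27.1%, set replicate 3 against replicate 2.

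Replicates 1 to 3 and 4 to 6 were then compared probe by probe with limma and Benjamini-Hochberg adjustment over all 13718 probes, with the threshold for a call set at an adjusted p of 0.05. A total of 185 probes (1.35%) passed, 139 of them higher and 46 lower in replicates 1 to 3, and 1680 had an unadjusted p under 0.05. By gene, 92 of 8289 (1.11%) were higher and 28 (0.338%) lower. The median difference was 0.51 among the higher genes and -0.39 among the lower ones, and 47 higher and 7 lower genes differed by more than 0.5. All values of replicates 1 to 3 lay above all of 4 to 6 in 697 genes (8.41%) and below them in 804 (9.7%). At an unadjusted p under 0.05, 541 of the 8289 genes were higher and 492 lower. Leaving out replicate 4, 5 or 6 left 55, 64 or 63 called probes, and leaving out replicate 3 gave 423. In bulk RNA, fewer cells of a type and less RNA per cell cannot be told apart.

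Scd1 was higher in replicates 1 to 3 by 1.39 (standard error 0.13, adjusted p = 0.00015), or 2.62-fold, the largest difference of any gene called. Cidec was higher by 1.20 (standard error 0.14, adjusted p = 0.00042), or 2.30-fold, and Gpd1, the glycerol 3-phosphate dehydrogenase that supplies the backbone of triacylglycerol, by 0.83 (standard error 0.09, adjusted p = 0.00019). These calls depend on how the variance is modelled. With a variance prior that follows the mean and is robust to highly variable probes, the adjusted p was 0.107 for Scd1 and 0.173 for Cidec, whereas Gpd1 kept its call under each alternative run. Of 51 named genes with a call, 29 lost it with this prior, and 17, 2, 2, 32, 26 and 26 lost it without replicate 1, 2, 3, 4, 5 and 6 in turn.

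Of 15 measured markers of the mature adipocyte, 9 were called higher in replicates 1 to 3 and none lower, against 1.11% and 0.338% of all genes. The list's median difference was 0.53 against -0.01 over all genes. Adipoq measured 13.27, 13.24 and 13.74 in replicates 1 to 3 and 12.77, 12.57 and 12.70 in replicates 4 to 6, a difference of 0.74 (adjusted p = 0.0023). Car3 and Aqp7, the glycerol channel of fat cells, differed by 0.82 (adjusted p = 0.016) and 0.53 (adjusted p = 0.013). All of these genes lay highest in replicate 3, as did 14 of the 15 on the list.

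Members that did not pass were Pparg, with 9.84, 9.72 and 10.19 in replicates 1 to 3 and 9.73, 9.68 and 9.58 in replicates 4 to 6 (adjusted p = 0.26), Lpl (0.19, adjusted p = 0.27), Lep, Lipe, Apoe and Adipor2. A dimmer Pparg probe was called, with 7.05, 6.94 and 7.20 in replicates 1 to 3 and 6.73, 6.73 and 6.79 in replicates 4 to 6 (0.31, adjusted p = 0.036). The count of 9 became 6 without replicate 4, 5 or 6, was 9 without replicate 3 and 0 with the robust variance prior that follows the mean.

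Triacylglycerol synthesis showed the next largest median difference, 0.32. Of its 11 members 6 were called higher and none lower, against 1.11% and 0.338% of all genes. Besides Gpd1, Dgat2 and Aqp7 the higher genes were Dgat1, the other acyltransferase of the last step (0.52, adjusted p = 0.0070), Gpat3, which acylates glycerol 3-phosphate (0.46), and Lpin1, the phosphatidate phosphatase lipin (0.26). Agpat2 overlapped between the groups. The list's count was 3 without replicate 4, 5 or 6, and 2 with the robust variance prior that follows the mean.

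The droplet and lipolysis list held 6 genes called higher and none called lower of 15, against 1.11% and 0.338% of all genes. Its median difference was 0.15. At an unadjusted p under 0.05, 8 were higher and 1, Hilpda, lower (-0.15), against 541 and 492 of all 8289 genes. Plin4, a droplet coat protein, measured 11.16, 11.28 and 11.33 in replicates 1 to 3 and 10.69, 10.69 and 10.58 in replicates 4 to 6. It differed by 0.61 (standard error 0.07, adjusted p = 0.00025). Fitm2, which helps lipid leave the endoplasmic reticulum, was higher by 0.46 (adjusted p = 0.0070), and Plin1, the hormone-regulated coat protein of adipocytes, by 0.43 (adjusted p = 0.049). The count was 3 without replicate 5, 4 without replicate 4 or 6 and 2 with the robust prior.

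Fatty acid synthesis had 4 called genes of 14, all higher, against 92 higher and 28 lower of all 8289 genes. They were Scd1, Thrsp, the mitochondrial citrate carrier Slc25a1 (0.40, adjusted p = 0.010) and the acetyl-CoA synthetase Acss2 (0.29, adjusted p = 0.042). The list's median difference was 0.09. At an unadjusted p under 0.05, 5 were higher and 2 lower, Elovl6 (-0.19) and Elovl5 (-0.14), against 541 and 492 of all genes. Without replicate 4, 5 or 6 the count was 2, and it was 1 with the robust prior. Among 13 genes of fatty acid uptake, 1 was called, the binding protein Fabp5, which was higher by 0.28 (adjusted p = 0.035). Fabp5 averaged 6.88, near the bottom of the scale, and the count of 1 was 0 without replicate 1, 4, 5 or 6. At an unadjusted p under 0.05, 5 of the 13 were higher and 2 lower, Acsl5 (-0.19) and Gpihbp1 (-0.16).

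Of 20 genes of mitochondrial β-oxidation, Cpt2, which reforms acyl-CoA in the mitochondrial matrix, was higher by 0.42 (adjusted p = 0.0070) and Acadvl, the dehydrogenase for very long chains, by 0.29 (adjusted p = 0.025), and the list's median difference was 0.08. The count of 2 was 0 without replicate 5, 1 without replicate 1, 4 or 6, 4 without replicate 2 or 3 and 5 with array weights. At an unadjusted p under 0.05, 8 of the 20 were higher, against 541 of all 8289 genes. Pcx, or pyruvate carboxylase, was the 1 called gene of 21 in the TCA cycle list, and it measured 7.48, 7.56 and 7.79 in replicates 1 to 3 and 7.14, 7.09 and 7.26 in replicates 4 to 6. None of 13 glycolytic genes was called in limma, with a median of -0.01. At an unadjusted p under 0.05 there were 3, against 541 higher and 492 lower of all 8289 genes. Of 71 nuclear genes of the electron transport chain, 1 was called, Cox8b (0.74, adjusted p = 0.013), a subunit form of brown fat and muscle. At an unadjusted p under 0.05, 6 of the 71 were higher and 3 lower. On a longer list of brown and beige adipocyte genes, Cox8b was the 1 called of 4 measured, with a list median of 0.04. Cox7a1 (-0.02) and Ppargc1a (0.11) on that list were not called. Cox8b lost its call without replicate 4, 5 or 6 and with the robust variance prior.

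Among secreted acute phase genes, Orm1, Orm2 and Hp were higher and Saa3 lower in replicates 1 to 3. Orm1 measured 9.40, 9.30 and 10.20 in replicates 1 to 3 and 8.77, 8.65 and 8.82 in replicates 4 to 6 (0.89, adjusted p = 0.0083). Saa3, a serum amyloid protein, measured 8.50, 8.50 and 8.32 in replicates 1 to 3 and 8.92, 8.93 and 8.59 in replicates 4 to 6 (-0.37, adjusted p = 0.042). With the robust prior none of these 4 was called.

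Genes of the other cell states in the dish gave no call. None of 16 preadipocyte and fibroblast genes and none of 30 collagen and matrix genes was called in limma, and their median differences were -0.02 and 0.04. At an unadjusted p under 0.05 there were 3 in each list, against 541 higher and 492 lower of all 8289 genes. Dlk1 measured 14.52, 14.52 and 14.41 in replicates 1 to 3 and 14.52, 14.39 and 14.38 in replicates 4 to 6. Pdgfra measured 13.02, 13.26 and 12.94 in replicates 1 to 3 and 13.13, 12.97 and 13.14 in replicates 4 to 6. The 3 preadipocyte genes were Pi16 (-0.23, adjusted p = 0.12), Thy1 (-0.15, adjusted p = 0.33) and Gata2, a factor that restrains adipogenesis (-0.14, adjusted p = 0.34). In each of them all values of replicates 1 to 3 lay below those of 4 to 6, as in 9.7% of all genes. The 3 matrix genes, Col4a2, Nid1 and Eln, ran the other way (0.23 each). Matrix genes called higher numbered 2 without replicate 3 and 1 with array weights.

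**Figure D4:**
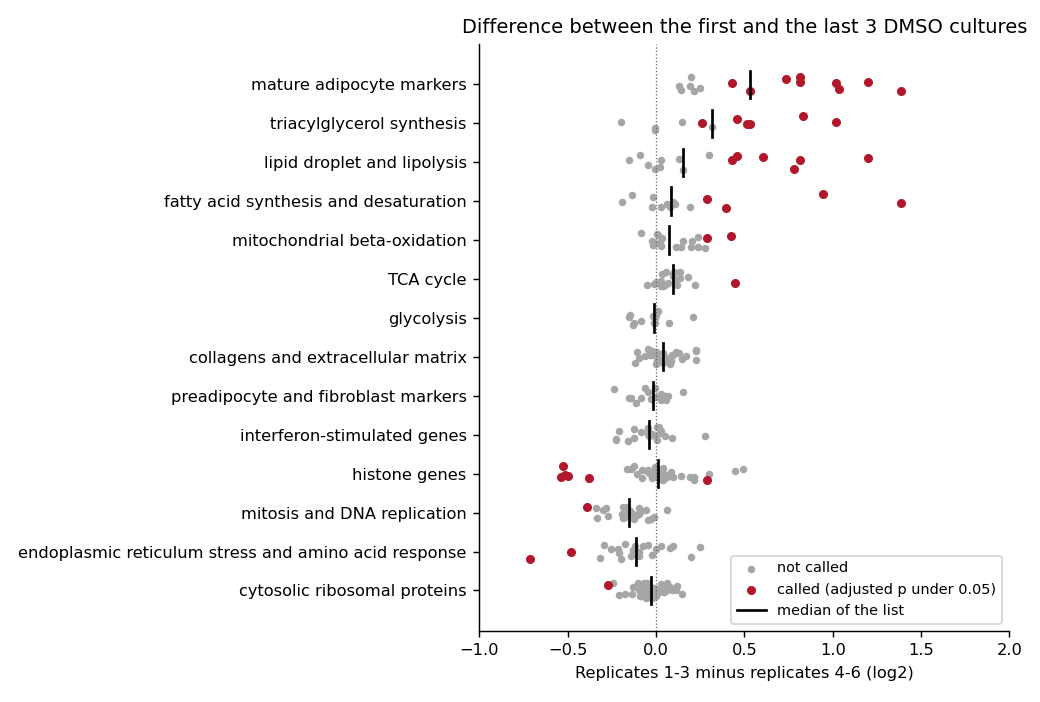
Difference between replicates 1 to 3 and replicates 4 to 6 (horizontal axis, log2, positive where 1 to 3 are higher) for each measured gene of 14 lists, with called genes in red and the median of each list as a bar. The medians of the adipocyte and triacylglycerol lists lie to the right of 0, and the called genes of the histone and amino acid response lists lie mostly to the left.

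The genes lower in replicates 1 to 3 formed smaller groups. Lsm8 differed by -0.92 (standard error 0.14, adjusted p = 0.0036), though its adjusted p was 0.278 with the robust prior. Chac1, which breaks down glutathione in the response to amino acid shortage, measured 11.36, 11.49 and 11.30 in replicates 1 to 3 and 12.21, 12.14 and 11.94 in replicates 4 to 6. It differed by -0.71 (standard error 0.08, adjusted p = 0.00025) and kept its call under each alternative run. Trib3, a pseudokinase induced by the transcription factor ATF4, measured 11.31, 11.42 and 11.23 in replicates 1 to 3 and 11.90, 11.89 and 11.61 in replicates 4 to 6 (-0.48, standard error 0.08, adjusted p = 0.0070), and its adjusted p was 0.062 without replicate 4 and 0.053 without replicate 5.

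Chac1 and Trib3 were the 2 called genes of 24 in the list of endoplasmic reticulum stress and amino acid response genes, whose median difference was -0.11. In 10 of the 24 all values of replicates 1 to 3 lay below those of 4 to 6, against 804 of all 8289 genes (9.7%). Among the 10 were the serine synthesis enzymes Phgdh and Psat1, the folate enzyme Mthfd2 and the stress factor Ddit3. In 2 others, the chaperones Dnajb9 (0.25, adjusted p = 0.15) and Calr (0.20, adjusted p = 0.24), all values of replicates 1 to 3 lay above. Over all genes the share that lay above was 8.41%. Ddit3, or CHOP, differed by -0.32 with an adjusted p of 0.062, and Psat1 by -0.30 with an adjusted p of 0.074. The count of called members was 1 without replicate 4 or 5 and 5 without replicate 2.

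ATF4 binds composite elements with C/EBP factors that can be written TGNNGCAA, and the promoters of Chac1 and Trib3 are shown because these genes led the list. Both strands of the 250 bases before each start site in RefSeq (GRCm38.p6) were searched, and matches stand in capitals, including those on the opposite strand. The stretch of Chac1 is chr2:119350992-119351081 on the plus strand, bases 250 to 161 before the start, and that of Trib3 is chr2:152344061-152344150 on the minus strand, bases 90 to 1 before the start.
Chac1: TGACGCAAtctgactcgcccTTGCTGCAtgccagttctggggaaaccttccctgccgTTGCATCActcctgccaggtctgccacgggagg
Trib3: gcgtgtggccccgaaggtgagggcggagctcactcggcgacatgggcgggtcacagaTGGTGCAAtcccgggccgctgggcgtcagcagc
Chac1 held 3 matches in this stretch and Trib3 held 1. The letters occurred in 8 of the 24 genes of the list, in 657 of 6797 measured genes with a promoter (9.67%) and in 9.59% of all 32851 promoters. Of the 8, 2 were called lower and 6 were not called. Among called genes with a promoter, the letters were in 5 of 27 lower genes and in 10 of 70 higher genes. A match describes letters and not a bound site, and Ddit3 and Phgdh had none in this window.

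Histone genes went both ways, with 5 of 43 lower and 1 higher in replicates 1 to 3, a median difference of 0.01, and 7 lower and 8 higher at an unadjusted p under 0.05. Over all 8289 genes, 492 were lower and 541 higher at an unadjusted p under 0.05. The 5 lower genes, H2ac15, H2ac12, H2ac7, H2ac24 and H2ac11, all encode H2A, the core histone made when DNA is copied, and were among 13 measured H2A genes with an H2ac symbol. H2ac15 measured 8.44, 8.49 and 8.56 in replicates 1 to 3 and 9.14, 8.74 and 9.22 in replicates 4 to 6 (-0.53, standard error 0.10, adjusted p = 0.0090). H2ac12 measured 8.37, 8.38 and 8.39 in replicates 1 to 3 and 8.97, 8.61 and 9.13 in replicates 4 to 6 (-0.52, adjusted p = 0.010). Replicates 4 and 6 lay well above replicate 5 in both genes.

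H2ac18, also an H2A gene, ran the other way, with 11.21, 11.19 and 11.33 in replicates 1 to 3 and 10.96, 10.98 and 10.93 in replicates 4 to 6 (0.29, adjusted p = 0.029). The H2A genes are near-identical copies, so a probe may read more than 1 of them. The count of 5 lower histone genes was 0 without replicate 4 or 6, 1 without replicate 1 and 5 with the robust variance prior, and that of higher histone genes was 5 without replicate 2. The H4 genes H4c8 (0.49, adjusted p = 0.10) and H4c1 (0.45, adjusted p = 0.055) did not pass.

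The promoters of replication-dependent histone genes are known for CCAAT boxes close to the start. The stretches of H2ac15, chr13:21753913-21754042, and H2ac12, chr13:22035644-22035773, both on the minus strand and both bases 130 to 1 before the start, are shown because these were the lowest of the H2A genes by difference. Capitals mark CCAAT and its reverse, ATTGG.
H2ac15: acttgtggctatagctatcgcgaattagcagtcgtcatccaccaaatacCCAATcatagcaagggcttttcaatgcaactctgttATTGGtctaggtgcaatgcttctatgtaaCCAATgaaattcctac
H2ac12: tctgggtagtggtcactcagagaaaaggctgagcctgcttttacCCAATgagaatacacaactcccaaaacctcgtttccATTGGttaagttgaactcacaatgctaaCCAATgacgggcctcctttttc
Each stretch held 3 matches, a CCAAT in the direction of the gene at either end and an inverted one between them. The letters were in the promoters of all 13 measured H2ac genes, whether called lower (5), higher (1) or not called (7), in 40.9% of measured genes with a promoter and in 33.8% of all promoters.

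Of 26 genes of mitosis and DNA replication, Birc5, which positions chromosomes and is also called survivin, was lower in replicates 1 to 3 (-0.39, standard error 0.07, adjusted p = 0.0070). In 9 of the 26 all values of replicates 1 to 3 lay below those of 4 to 6, against 9.7% of all genes. The list's median was -0.15 against -0.01 over all genes. At an unadjusted p under 0.05, 13 of the 26 were lower, against 492 of all 8289 genes. Birc5 measured 6.85, 6.93 and 6.89 in replicates 1 to 3 and 7.30, 7.17 and 7.37 in replicates 4 to 6. The median of the list's mean levels was 7.40, low on the scale, and the count of called members was 7 without replicate 5, 3 without replicate 3 and 0 without replicate 4 or 6.

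Other called genes among the lower 15 were Upp1, a uridine phosphorylase (-0.54), Pon2, a membrane lactonase (-0.44), Gad1, a glutamate decarboxylase (-0.45), Lurap1l (-0.52), Cyb5r1 (-0.41) and Cdsn (-0.43). The dimmer Upp1 probes differed by -0.14 and -0.16 and were not called. Gad1 averaged 6.68, near the bottom of the scale. Of the 15, 9 were highest in replicate 6 and 6 in replicate 4, and in 11 both were above replicate 5. In 3 lists of stimulus response 1 gene each was called, against 92 higher and 28 lower of all 8289 genes. Ddit4, a stress-induced inhibitor of mTORC1, was lower among 14 hypoxia genes (-0.30, adjusted p = 0.029). Egr2 was lower among 19 immediate early genes (-0.32, adjusted p = 0.028). Per1 was higher among 11 clock genes (0.26, adjusted p = 0.048), while Dbp and Ciart ran the other way (-0.18 each, not called). The 3 counts were 0 without replicate 4, 5 or 6, and the clock count also without replicate 1 and with the robust prior. In the ribosomal protein list Rpl22l1 was lower (-0.27) and no other of 54 was called.

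Some lists varied between single replicates without separating the sets. Of 21 interferon-stimulated genes none was called in limma. At an unadjusted p under 0.05 there were 3, against 541 higher and 492 lower of all 8289 genes. Usp18, a protease that removes ISG15, measured 8.55, 7.85 and 8.77 in replicates 1 to 3 and 8.53, 8.20 and 8.80 in replicates 4 to 6. Oasl2, an antiviral protein, measured 9.06, 8.47 and 9.27 in replicates 1 to 3 and 9.17, 8.76 and 9.35 in replicates 4 to 6. Isg15, the ubiquitin-like modifier itself, had 8.37 in replicate 2, and 8.80 to 9.21 in the other 5. Replicates 2 and 5 were thus the lowest in all 3 genes, 1 from each set. These were the 3 members of the list with an SD above 0.25. The list's median deviation from the mean over the 6 arrays was -0.11 in replicate 2 and -0.03 in replicate 5. Without replicate 3, 2 members were called lower, and without replicate 2, 1 was called higher. With array weights 1 was called higher and 1 lower.

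The 7 transcripts of the mitochondrial genome were low in replicate 5, where the list's median deviation from the mean over the 6 arrays was -0.17, against -0.04 to 0.08 in the others. COX2, a subunit of cytochrome oxidase, measured 12.75, 12.78 and 12.77 in replicates 1 to 3 and 12.75, 12.35 and 12.55 in replicates 4 to 6. None of the 7 was called in limma, and 3 were higher at an unadjusted p under 0.05, against 541 of all 8289 genes.

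**Figure D5:**
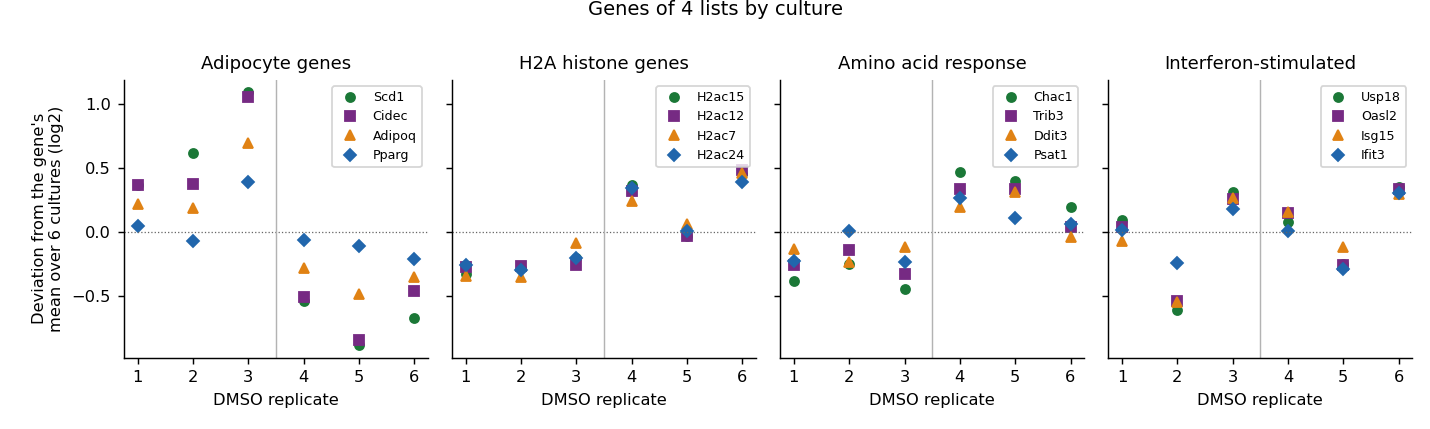
Deviation of each gene from its own mean over the 6 DMSO replicates (vertical axis, log2) by replicate (horizontal axis) for 4 genes each of 4 lists, with a line between replicates 3 and 4. Scd1, Cidec and Adipoq peak in replicate 3, and the H2A genes lie high in replicates 4 and 6. Chac1 and Trib3 lie high in replicates 4 and 5, and Usp18, Oasl2 and Isg15 lie low in replicates 2 and 5.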

How the data were processed

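Gene expression was measured on Illumina mouse WG6 bead arrays in total RNA of 3T3-L1 adipocytes. Per the study's methods, the authors kept probes with a detection p-value under 0.01 in at least 1 sample with lumi, transformed the signals by variance stabilization and quantile normalized them, so the deposited values are log2 values. The PPARδ and the PPARγ version of the DMSO values are the same hybridizations (same-numbered arrays correlated at 0.9987 or above in their deviations from the group mean, others at 0.2261 or below). The 12 columns of agonist-treated arrays were not used. The genome build and the versions of lumi and limma that the authors used are not given in the sources used here, and the number of arrays limits the precision.

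No further normalization was applied. Probes were named from GEO's platform annotation, in which 4 probes have several symbols and 1752 have none, and those were tested but not named. Replicates 1 to 3 were compared with replicates 4 to 6 in R 4.3.3 with limma 3.58.1 (lmFit and eBayes), with Benjamini-Hochberg adjustment over 13718 probes and a threshold of 0.05. Calls of genes are those of their probe with the highest mean. Plots were made in Python 3.11.15 (matplotlib 3.10.9).

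Genes were named by rule, namely the 25 of highest mean, the 25 of largest SD, the 10 of smallest SD among the brighter genes, the 15 of largest difference in each direction among called genes without overlap, up to 4 called members and 3 of largest SD in each list, and cell type markers. The members, lists and the split of the replicates were chosen with earlier results of these data known, and genes named beyond the rule were chosen after their values were seen. Alternatives were the version normalized with the PPARγ agonist arrays, median centring, cyclic loess, a filter on the dimmest 25% of probes, a variance prior following the mean (trend and robust), array weights, an unadjusted p, averaging a gene's probes, other measures of spread, and leaving out each replicate.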

Additional observations from a re-analysis of the deposited data

Results flagged for a closer look

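Among 166 named genes, 7 had 1 array that stood apart from the other 5 by a gap above Dixon's critical value for 6 arrays. The critical value allows about 1 in 20 for genes not chosen by their values. These genes were chosen largely by their level, spread or differences in the same arrays, so the number cannot be set against chance. In replicate 3, Lss, a cyclase of cholesterol synthesis, was highest at 8.27, the histone gene H4c8 at 8.59 and the progenitor marker Cd34 at 7.01. Nid1, a basement membrane linker, was highest in replicate 2 at 11.28. S100a4, a calcium-binding protein of fibroblasts, was highest in replicate 1 at 10.91, the mitochondrial transcript ND4L was lowest in replicate 5 at 7.36, and Acta1 was lowest in replicate 6 at 6.39.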

How the results depend on the processing

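No paired analysis was possible because replicates 1 to 3 and 4 to 6 share no replicate number. With each replicate left out in turn, the probes called ranged from 55 (without replicate 4) to 423 (without replicate 3), those higher in replicates 1 to 3 from 30 to 283 and lower from 11 to 140, and the genes called from 23 to 162 higher and from 5 to 82 lower. The probes called were 97 without replicate 1, 64 without replicate 5 (30 higher, 34 lower) and 63 without replicate 6. The median SD ranged from 0.0766 to 0.0839, and 14 (without replicate 3) to 25 of the 25 genes of largest SD were shared. The robust variance prior that follows the mean called 69 probes (45 higher, 24 lower) and 31 higher and 18 lower genes, and 29 of 51 named called genes were lost. Array weights called 489 probes (310 higher, 179 lower) and 188 higher and 114 lower genes, and an unadjusted p 1680 probes (867 higher, 813 lower) and 541 higher and 492 lower genes. The share of called probes that were higher was 75.1%, and 46.9% without replicate 5, 65.2% with the robust prior, 63.4% with array weights and 51.6% with an unadjusted p. The causes were not tested. None of the 51 named called genes changed sign in the alternatives run, and the other version, median centring, loess, the filter on dim probes and the mean of all probes kept each total within 1.5 times. The bead signals over background are not analysed here, so which low values are limited by signal is unknown.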

Other observations

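Of the probes without a gene name, 3 had larger SDs than Scd1. The pair ILMN_3084954 and ILMN_1218592 ran together, with 9.42, 9.19 and 9.15 in replicates 1 to 3 and 11.68, 10.39 and 11.86 in replicates 4 to 6 for the one, and 9.16, 9.10 and 8.94 in replicates 1 to 3 and 11.49, 10.35 and 11.66 in replicates 4 to 6 for the other. These SDs of 1.24 were the largest among the probes analysed. As in Lsm8 and the called lower H2A genes, replicates 4 and 6 lay above replicate 5. ILMN_1215076, with an SD of 1.13, was highest in replicate 2 at 9.25.

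Of the 51 probes in which replicate 2 stood above the other arrays, 39 had a gene symbol, and 22 of these 39 were not the brightest probe of their gene, against 3673 of all 11962 probes with 1 symbol. This was noticed after the values were seen, and was not tested. A dimmer probe of Col3a1, a fibrillar collagen, measured 8.57, 9.48 and 8.46 in replicates 1 to 3 and 8.78, 8.73 and 8.56 in replicates 4 to 6. The brightest Col3a1 probe measured 12.53, 12.66 and 12.28 in replicates 1 to 3 and 12.54, 12.60 and 12.47 in replicates 4 to 6. The same held for Slc38a2, an amino acid transporter, whose dimmer probe had 10.92 in replicate 2 and 9.75 to 10.25 in the other 5, while its brightest probe had 10.61 in replicate 2 and 10.42 to 10.52 in the others.

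Mdm2 and Slc35e3, both among the 8 brightest genes, lie next to each other in the RefSeq gene order, again noticed after the values were seen. Of the neighbouring genes with a probe, Rap1b averaged 12.35, Cpsf6 7.37, Nup107 7.20 and Lyz1 6.93.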
